A study of Mus musculus with 14 samples.

Results

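N-methyl-D-aspartate (NMDA) receptors are glutamate-gated, calcium-permeable channels, and mice encode their subunits in 7 genes: Grin1, Grin2a, Grin2b, Grin2c, Grin2d, Grin3a and Grin3b. All 7 were found by Ensembl identifier among the 48440 genes of the count table, and all 7 passed the filter on low counts that left 24680 genes for testing. The libraries are bulk RNA from the cerebellum (3 CARIP-/- and 3 wild type), the cerebral cortex (2 and 2) and the hippocampus (2 and 2) of C57BL/6 mice. All 14 share that strain, and the labels give no age, sex, rearing or construct of the knockout, and do not say whether libraries with the same number come from 1 mouse. The cortical libraries are titled Cerebrum while their tissue label is cerebral cortex. CARIP is not a symbol in the annotation used here, so the targeted transcript was not read, and nothing in the labels says that the replicates are separate animals. The p-values therefore measure the spread between these libraries.

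A working receptor is a tetramer that contains GluN1, the product of Grin1, which binds the co-agonist glycine or D-serine. GluN2A to GluN2D, from Grin2a to Grin2d, bind glutamate and set how fast the channel closes, how strongly magnesium blocks it and which scaffolds hold it at the synapse. GluN3A and GluN3B, from Grin3a and Grin3b, bind glycine and lower calcium permeability. In forebrain, GluN2B is the main early GluN2 subunit and GluN2A is added as synapses mature. GluN2C is known from mature cerebellar granule cells and from some astrocytes, and GluN2D from interneurons, thalamus and brainstem. Reads per gene show transcript abundance, not the make-up of assembled receptors. In bulk tissue, fewer cells of a type and less RNA per cell cannot be told apart.

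In the transcripts compared here, the 7 genes share only short stretches of identical sequence, which bears on whether a read can be assigned to 1 member. Among the 21 pairs of members, runs of identical bases were searched between single transcripts (GENCODE M21, GRCm38). Each member was represented by its transcript with the longest coding sequence, and its other transcripts were not searched. The coding stretches below are shown as examples, 1 between glutamate-binding subunits and 1 between a GluN2 and a GluN3 gene.
Grin2c and Grin2d (exon 9 of Grin2c, chr11:115255377-115255408, and exon 6 of Grin2d, chr7:45856844-45856875, minus strand): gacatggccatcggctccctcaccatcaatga
Grin2a and Grin3b (exon 10 of Grin2a, chr16:9653454-9653473, minus strand, and exon 3 of Grin3b, chr10:79974636-79974655, plus strand): agttacacagccaacctggc
The second of these codes for the conserved motif of the channel-lining membrane segment M3, which forms the gate in ionotropic glutamate receptors.

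The genes lie on 7 chromosomes and differ widely in length, so levels are compared between genes only per kilobase of exon. Grin1 spans chr2:25291181-25319187 with 9700 exonic bases. Grin2a (chr16:9567898-9995560) has 17933, Grin2b (chr6:135713233-136173511) 24842, Grin2c (chr11:115249169-115267243) 5037, Grin2d (chr7:45831883-45878378) 6658 and Grin3a (chr4:49661611-49845744) 12275, all on the minus strand. Grin3b (chr10:79970715-79977190) is on the plus strand with 3296. Its exons overlap those of Tmem259 on the other strand by 1059 bases, and Tmem259 had 16431 reads over the 14 libraries. Grin1 exons overlap the antisense gene Grin1os by 1307 bases, and Grin2d exons overlap Gm45441 by 643. The labels do not state whether the libraries kept strand, so reads of these 3 members in the overlaps are uncertain.

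Windows of the 250 bases before the start annotated in RefSeq (GRCm38.p6) were at hand for Grin1, Grin2c, Grin2d and Grin3b. The windows of Grin2c and Grin3b are printed, 5′ to 3′, because these are the 2 members with higher levels in cerebellum than in both other regions. Capitals mark GC boxes (GGGCGG) and TATA boxes (TATAAA), searched on both strands, with overlapping matches of a motif each counted.
Grin2c, minus strand, chr11:115267244-115267493: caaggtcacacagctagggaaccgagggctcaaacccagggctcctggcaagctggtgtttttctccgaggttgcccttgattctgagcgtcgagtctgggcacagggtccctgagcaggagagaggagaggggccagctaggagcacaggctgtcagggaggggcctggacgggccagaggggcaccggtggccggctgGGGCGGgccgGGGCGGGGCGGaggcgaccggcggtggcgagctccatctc
Grin3b, plus strand, chr10:79970474-79970723: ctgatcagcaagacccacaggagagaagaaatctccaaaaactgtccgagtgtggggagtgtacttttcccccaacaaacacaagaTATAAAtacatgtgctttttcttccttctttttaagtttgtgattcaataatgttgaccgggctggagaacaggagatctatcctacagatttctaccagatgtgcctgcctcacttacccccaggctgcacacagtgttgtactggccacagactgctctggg
The Grin2c window held 3 GC boxes and no TATA box, with 68.8% G and C, and the Grin3b window held 0 GC boxes and 1 TATA box, with 46.0% G and C. The Grin1 and Grin2d windows held neither motif. The Grin2d window (chr7:45866682-45866931) lies inside the GENCODE span of that gene, not upstream of it. The end of the Grin3b window likewise passes the GENCODE start of Grin3b (79970715). Of 32851 windows of the same length, 32.7% held a GC box and 12.4% a TATA box. A match is a description of the letters only.

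Library totals ran from 20.1 to 38.8 M reads. A marker of each region was read against the labels. Gabra6 (granule cells) was at 295 to 516 CPM (reads relative to library totals scaled by edgeR's TMM) in cerebellum and at most 8.46 elsewhere. Tbr1 (cortical excitatory neurons) was at 151 to 239 in cortex and 54.7 to 83.3 in hippocampus, and Fibcd1 (CA1 pyramidal cells) at 116 to 130.3 in hippocampus and at most 21.4 elsewhere. Not every listed marker kept to its region: Neurod6, of the cortical excitatory list, was at 210.0 to 246 CPM in hippocampus against 39.9 to 53.1 in cortex, and Neurod2 of the same list at 120.2 to 151 against 47.6 to 67.0. On neuronal and glial markers, 3 libraries stood apart from others of their group. Both cerebellar libraries numbered 2 had less of the granule cell markers (8 genes summed, 3699 and 3915 CPM against 4722 to 6145) and more of the oligodendrocyte markers (8 genes, 4295 and 8927 against 2257 to 3266). Knockout cortex 2 had more of the striatal markers (9 genes, 1028 CPM against 233 to 347 in the other cortical libraries) and less of the cortical excitatory markers (8 genes, 774 against 1186 to 1217). Choroid plexus markers (7 genes) set other libraries apart: wild-type hippocampus 2 held 1139 CPM against 83.0 to 135 in the other hippocampi, knockout cortex 2 held 591 against 17.9 to 37.0, and wild-type cerebellum 1 held 33.8 against 644 to 1380. Some of the results that rest on the first 3 libraries are also given without them. The libraries and genes named to describe them were chosen after their values were seen.

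The first comparison asked how the transcript pool of NMDA receptor subunits was composed in each region. In the cerebellum, Grin2c and Grin1 led per kilobase, and Grin2b was near the bottom. In cortex and hippocampus Grin2b led and Grin2c was a minor component. Grin1 and Grin2a came next at about the same share in cortex, whereas in hippocampus Grin2a took more than Grin1. As a share of the summed CPM per kilobase of the 7 genes, Grin2c made up 49.8% ± 5.94 (SD, n = 6) in cerebellum, 5.25% ± 0.575 (n = 4) in cortex and 4.18% ± 0.356 (n = 4) in hippocampus. Grin2b made up 3.28% ± 2.13, 41.4% ± 1.89 and 43.2% ± 0.264 in the same order. Grin2a took 12.2% ± 1.31 in cerebellum, 24.2% ± 2.93 in cortex and 33.1% ± 1.42 in hippocampus. The obligatory Grin1 took 28.7% ± 1.44, 24.4% ± 1.76 and 17.1% ± 0.867.

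**Figure D1:**
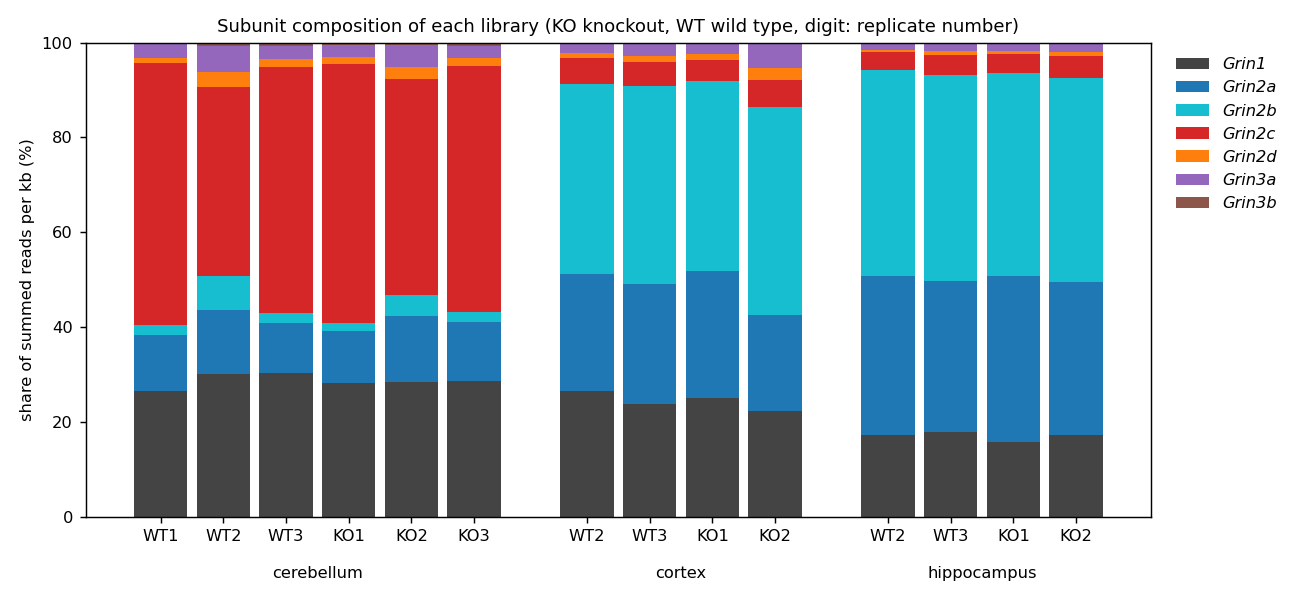
Stacked bars give, for each of the 14 libraries, the percent of the summed CPM per kilobase of exon contributed by each of the 7 subunit genes. Grin2c fills 39.9% to 55.3% of the cerebellar bars and 3.83% to 5.85% of the cortical and hippocampal ones, where Grin2b fills 39.9% to 43.9%.

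Of the 21 share comparisons between regions, 16 passed exact two-sided permutation tests over libraries after adjustment across the 21. The smallest p these tests allow is 0.00476 for 6 against 4 libraries and 0.0286 for 4 against 4. Grin2a, Grin2b, Grin2c and Grin3b shares did not overlap between cerebellum and either forebrain region (exact permutation p = 0.00476, adjusted p = 0.0111 for each). Hippocampus differed from cortex by a higher Grin2a share and lower Grin1, Grin2d and Grin3a shares, each with exact permutation p = 0.0286 and adjusted p = 0.0375. The hippocampal Grin2b share was 1.83 percentage points higher than the cortical one (exact permutation p = 0.143, adjusted p = 0.167). Without knockout cortex 2 that difference was 2.68 points and passed (adjusted p = 0.0375, exact permutation test), whereas the lower Grin3a share did not (-0.742 points, adjusted p = 0.0706). The Grin2d and Grin3a share differences between hippocampus and either other region also missed the threshold without any 1 of the 4 hippocampal libraries (adjusted p from 0.0769 to 0.141, exact permutation tests).

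The order of the leading pair in cerebellum depended on the length used. Per kilobase of all exons merged, Grin2c (49.8%) stood above Grin1 (28.7%). Per kilobase of the longest transcript, Grin1 had 45.4% and Grin2c 35.8%, and per kilobase of coding sequence, 38.9% and 27.4%. Likewise, in cortex the longest transcript put Grin1 (39.5%) above Grin2b (30.5%). Grin1 has 14 annotated transcripts whose merged exons are much longer than its coding sequence of 2877 bases. Directions of the Grin2a, Grin2b and Grin2c share differences between cerebellum and cortex were the same with all 3 lengths, though the Grin2a difference was -2.86 points and missed the threshold with coding length (adjusted p = 0.0789, exact permutation test).

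Ratios within a library do not depend on its total. Grin2a to Grin2b was 4.64 ± 1.76 (SD, n = 6) in cerebellum, 0.589 ± 0.0929 (n = 4) in cortex and 0.765 ± 0.0353 (n = 4) in hippocampus. In cerebellum the 6 ratios were 6.22, 3.06 and 5.91 in knockout 1, 2 and 3 and 5.72, 1.90 and 5.05 in wild type 1, 2 and 3. All 6 lay above 1, and all 8 forebrain ratios lay below 1, between 0.457 and 0.811. Grin2c to Grin2b was 30.7, 10.1 and 24.9 in the knockout and 26.4, 5.61 and 24.9 in the wild-type cerebella, against 0.0882 to 0.137 in the forebrain. The size of a ratio depends on the gene lengths: with coding length, the cerebellar mean of Grin2c to Grin2b was 4.96 (1.36 to 7.44) instead of 20.4, and that of Grin2a to Grin2b was 3.39 (1.39 to 4.55). The lowest cerebellar value of both ratios within each genotype was that of library 2.

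**Figure D2:**
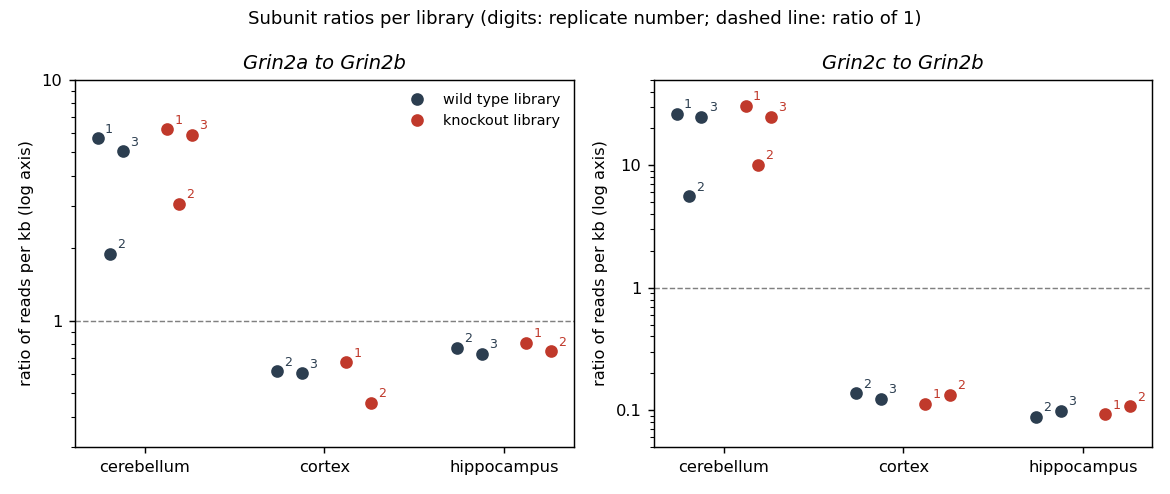
Points give the ratio of CPM per kilobase of Grin2a to Grin2b (left) and of Grin2c to Grin2b (right) in each library, on log axes, with the replicate number beside each point. Cerebellar ratios lie above 1 (1.90 to 6.22 and 5.61 to 30.7) and forebrain ratios below 1, and the libraries numbered 2 are lowest in cerebellum.

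Of the 15 ratio comparisons between regions, 12 passed exact permutation tests. On the log2 scale, Grin2a to Grin2b was 2.88 higher in cerebellum than in cortex and 0.39 higher in hippocampus than in cortex. The first had exact permutation p = 0.00476 (adjusted p = 0.00893) and the second p = 0.0286 (adjusted p = 0.0357), which missed the threshold without any 1 hippocampal library (adjusted p = 0.0714, exact permutation test). The summed GluN2 genes relative to Grin1 were 2.35 in cerebellum, 2.97 in cortex and 4.76 in hippocampus, and none of the 3 ranges overlapped (exact permutation, adjusted p = 0.00893 for cerebellum against cortex). In the same order it was 1.11, 1.44 and 2.34 with the longest transcript and 1.44, 4.14 and 6.67 with coding length. Without the 3 libraries that stood apart, the cerebellar difference from cortex in that ratio was -0.26 (log2) and its adjusted p rose to 0.0714 in the exact permutation test. Summed GluN3 genes relative to Grin1 differed between no 2 regions in these tests (adjusted p from 0.110 to 0.686, exact permutation). The sum of the 7 genes, in CPM per kilobase, was 116 ± 11.2 in cerebellum, 177 ± 16.3 in cortex and 237 ± 23.1 in hippocampus.

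Each gene was then compared between regions in counts, with edgeR's quasi-likelihood test fitted to all 14 libraries and genotypes weighted equally. Between cerebellum and cortex 5 of 7 members passed (adjusted p under 0.05), where 48.4% of all genes tested passed. Of the 7, 2 were higher and 3 lower in cerebellum, against 23.0% and 25.3% of all genes. Between cerebellum and hippocampus 5 of 7 passed against 47.3% of all genes, again 2 higher and 3 lower, against 22.6% and 24.7%. Hippocampus and cortex differed in 1 of 7, higher in hippocampus, against 12.0% of all genes, of which 5.49% were higher and 6.48% lower. Counts over 7 genes are read here as a description only, and the values below show which members differed and by how much.

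Grin1, the subunit that every NMDA receptor contains, varied least between regions of the 5 members called in cerebellum. It was at 334, 279.6 and 324 CPM in knockout cerebellum 1, 2 and 3 and at 335, 303 and 353 in wild-type cerebellum. Cortex held 427 and 367 CPM in knockout 1 and 2 and 513 and 375 in wild type 2 and 3. Hippocampus held 359 and 364 in the knockout and 451 and 396 in the wild type. Every cerebellar library lay below every cortical and hippocampal one. The log2 difference was -0.39 ± 0.10 (SE) between cerebellum and cortex (adjusted p = 0.00717) and -0.28 ± 0.10 between cerebellum and hippocampus (adjusted p = 0.0356). Without wild-type cortex 2 the first was -0.25 with adjusted p = 0.0596. The second missed the threshold with a block for the replicate number (-0.30, adjusted p = 0.0706) and without any 1 of the 4 hippocampal libraries, knockout cerebella 2 and 3, or wild-type cerebella 1 and 2 (adjusted p from 0.0530 to 0.162). Cortex and hippocampus overlapped (-0.10 ± 0.11, adjusted p = 0.648).

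Grin2a, the subunit of fast, mature synapses, rose in the order cerebellum, cortex, hippocampus with no overlap between regions. Its 6 cerebellar libraries held 242, 252 and 257 CPM in the knockout and 280.1, 251 and 226 in the wild type. Cortical values were 851 and 610.0 in the knockout and 883 and 732 in the wild type. Hippocampal values were 1457 and 1247 in the knockout and 1625 and 1298 in the wild type. Cerebellum was 3.06-fold lower than cortex (log2 -1.61 ± 0.11, adjusted p = 2.31e-07) and 5.59-fold lower than hippocampus (-2.48 ± 0.12, adjusted p = 6.06e-09). Grin2a was the member that passed between hippocampus and cortex, 1.83-fold higher in hippocampus (log2 0.87 ± 0.13, adjusted p = 6.35e-04).

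Grin2b, whose long cytoplasmic tail binds CaMKII, had the widest range of the 7. Knockout cerebella held 53.9, 114 and 60.3 CPM and wild-type cerebella 67.9, 184 and 61.8, in the order 1, 2, 3. Cortical libraries held 1746 and 1848 CPM in the knockout and 1980.3 and 1675 in the wild type, and hippocampal libraries 2489 and 2311 in the knockout and 2908 and 2465 in the wild type. No region overlapped another. Cerebellum was 20.3-fold lower than cortex (log2 -4.35 ± 0.33, adjusted p = 2.41e-06) and 28.5-fold lower than hippocampus (-4.83 ± 0.34, adjusted p = 1.13e-06). Without the 3 libraries that stood apart these were -4.88 ± 0.10 and -5.38 ± 0.10. Hippocampus was 1.40-fold above cortex, which missed the threshold (log2 0.49 ± 0.34, adjusted p = 0.446). It passed in a fit to the cortical and hippocampal libraries alone (0.47 ± 0.11, adjusted p = 0.0231) and without the 3 libraries (0.51 ± 0.09, adjusted p = 0.00127).

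Grin2c, which encodes the low-conductance subunit with weak magnesium block, ran the other way. Knockout cerebella held 335, 233 and 305 CPM and wild-type cerebella 364, 209 and 312. The 4 cortical values were 39.8, 49.9, 54.8 and 42.2 and the 4 hippocampal ones 46.7, 50.4, 52.0 and 49.2, each in the order knockout 1, knockout 2, wild type 2, wild type 3. The lowest cerebellar library was above all forebrain libraries, and cortex and hippocampus overlapped. Cerebellum was 6.28-fold above cortex (log2 2.65 ± 0.17, adjusted p = 1.28e-07) and 5.91-fold above hippocampus (2.56 ± 0.17, adjusted p = 1.26e-07), and hippocampus differed from cortex by 0.09 ± 0.17 (adjusted p = 0.820). Per kilobase of merged exons, forebrain Grin2c (7.91 to 10.9) stayed above Grin2d (1.33 to 4.08) and near or above Grin3a (3.62 to 8.87). The order of Grin2c and Grin3a depended on the length used. With coding length, the mean Grin2c share was below that of Grin3a in cortex (1.64% against 2.599%) and hippocampus (1.27% against 1.36%). With the longest transcript it was above in both (3.85% against 3.67% and 3.26% against 2.09%).

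**Figure D3:**
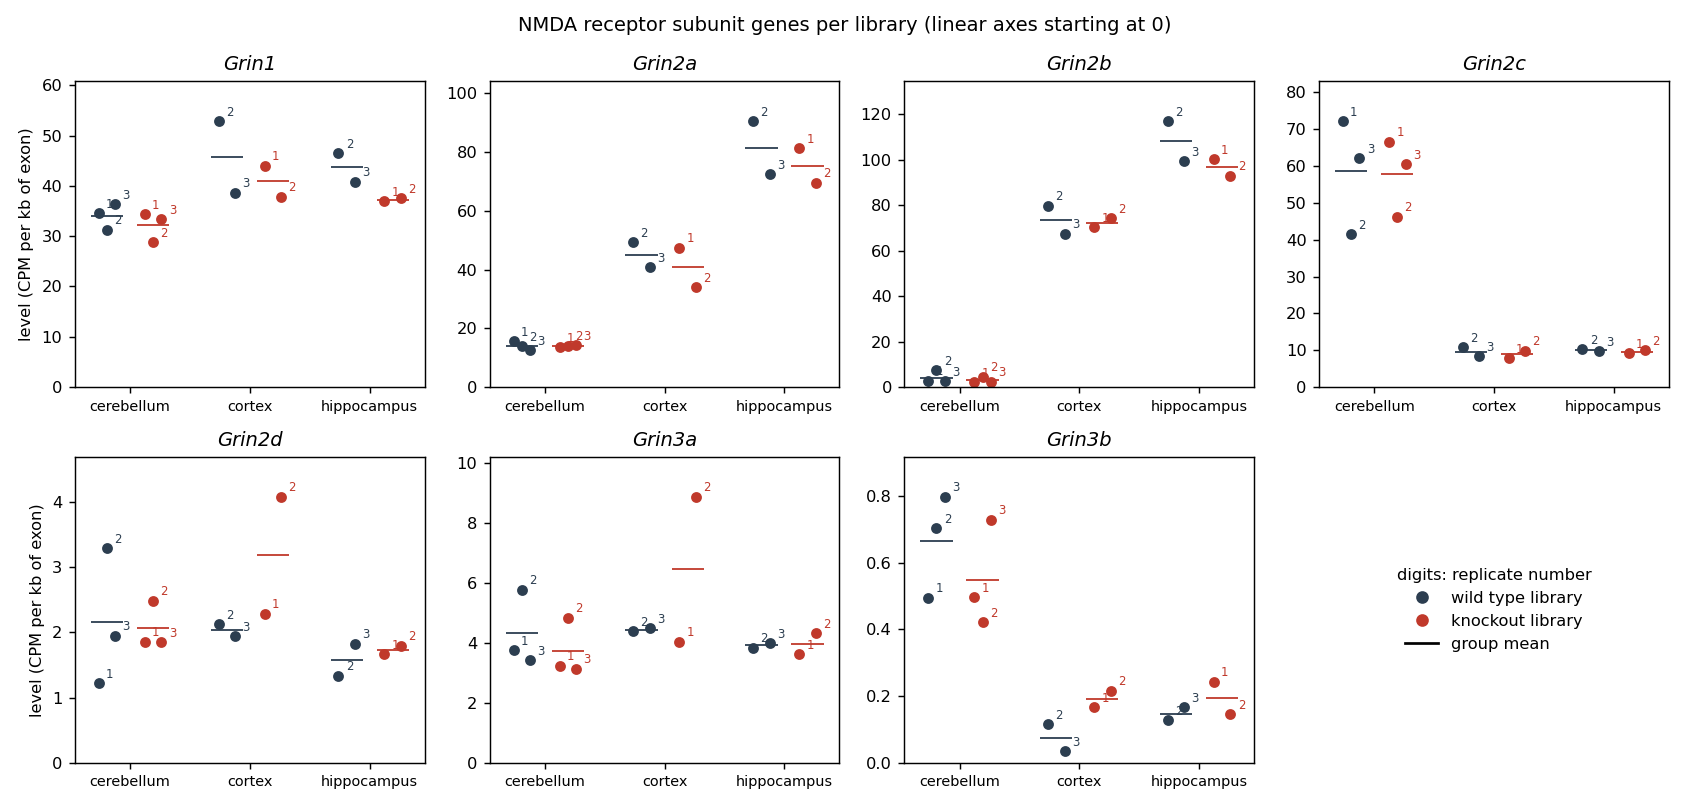
Each panel gives the CPM per kilobase of exon of 1 subunit gene in every library, by region and genotype, on its own linear axis that starts at 0. Grin2a and Grin2b are lowest in cerebellum, Grin2c and Grin3b are highest there, and Grin3a overlaps between all regions while Grin2d overlaps between cerebellum and each other region. Knockout cortex 2 is the highest library for both.

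Grin2d, the subunit of the slowest-closing channels, was low in all 3 regions and did not pass in any of edgeR's regional tests of counts. It was at 12.3, 16.5 and 12.3 CPM in knockout and 8.12, 21.9 and 12.9 in wild-type cerebellum. Cortex held 15.2 and 27.1 CPM in the knockout and 14.1 and 12.9 in the wild type. Hippocampus held 11.1 and 11.9 in the knockout and 8.88 and 12.1 in the wild type. Cerebellum overlapped both forebrain regions, with log2 differences of -0.27 ± 0.25 (adjusted p = 0.385) from cortex and 0.35 ± 0.25 (adjusted p = 0.277) from hippocampus. All 4 hippocampal libraries lay below all 4 cortical ones (log2 -0.62 ± 0.27, adjusted p = 0.182), and the difference was -0.38 ± 0.17 without the 3 libraries (adjusted p = 0.137).

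Grin3a, a glycine-binding subunit that limits spine maturation, likewise showed no regional difference in counts that passed in edgeR's fit to all 14 libraries. Cerebellar libraries held 39.6, 59.4 and 38.5 CPM in the knockout and 46.1, 70.8 and 41.9 in the wild type. Cortical libraries held 49.6 and 109 in the knockout and 53.8 and 55.1 in the wild type, and hippocampal ones 44.5, 53.1, 47.1 and 48.9 in the order given for Grin2c. The 3 regions overlapped. Cerebellum was -0.42 ± 0.22 below cortex on the log2 scale (adjusted p = 0.141), which became -0.33 ± 0.09 with adjusted p = 0.00675 without the 3 libraries. It also passed without wild-type cerebellum 2 (-0.55, adjusted p = 0.0459) and without knockout cortex 1 (-0.63, adjusted p = 0.0135). Hippocampus against cortex was -0.44 ± 0.24 (adjusted p = 0.306), and it passed without knockout cortex 1 (-0.67, adjusted p = 0.0416), which leaves knockout cortex 2 as the only knockout library of that region. Against hippocampus, cerebellum was 0.03 ± 0.22 (adjusted p = 0.937), but -0.22 ± 0.08 with adjusted p = 0.0266 without the 3 libraries.

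Grin3b, the GluN3 gene known from motor neurons, was near the detection limit. Its 14 libraries held 3 to 68 reads, of which the cerebellar ones had 37 or more and the others 24 or fewer. Cerebellar values were 1.64, 1.39 and 2.40 CPM in the knockout and 1.63, 2.32 and 2.63 in the wild type. Cortical values were 0.551, 0.712, 0.383 and 0.114 and hippocampal ones 0.802, 0.479, 0.419 and 0.550 in the same order as before. All cerebellar libraries exceeded all others, 4.95-fold over cortex (log2 2.31 ± 0.34, adjusted p = 1.32e-04) and 3.54-fold over hippocampus (1.83 ± 0.33, adjusted p = 5.90e-04). How many of these reads come from the overlapping Tmem259 was not tested.

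The cerebellar libraries numbered 2, of both genotypes, set much of the spread within that region. In knockout and wild-type library 2, Grin2b was 114 and 184 CPM against 53.9 to 67.9 in the other 4, and Grin3a 59.4 and 70.8 against 38.5 to 46.1. Grin2d was 16.5 and 21.9 against 8.12 to 12.9, and Grin2c was 233 and 209 against 305 to 364. Beside these stand markers in the same libraries. Slc6a5, the glycine transporter of glycinergic neurons, was at 130.1 and 151 CPM against 30.1 to 33.1, and Sst (somatostatin interneurons) at 10.03 and 21.1 against 0.62 to 1.10. The sum of the GABAergic list to which Sst belongs (8 genes) was lower there, at 1246 and 1177 against 1358 to 1507. Within it, Reln (711 and 609 against 851 to 1018) and Gad1 were lower. Gad2 (171 and 197 against 134 to 150), Slc32a1, Vip and Lhx6 were higher, like Sst, and Npy overlapped. Tcf7l2, of the thalamic list, was at 19.2 and 45.3 against 8.64 to 11.7. The sum of that list (7 genes) was at 569 and 486 against 599 to 661. Most of this sum was Rora, at 462 and 369 against 499 to 565. Rgs16 of that list was also lower, and Prkcd, Synpo2, Lef1 and Ramp3 overlapped. The summed oligodendrocyte precursor markers (6 genes) were at 122 and 207 against 67.3 to 88.1. Purkinje cell markers (7 genes) were at 4311 and 3459 against 5241 to 5836. Cortical excitatory markers (8 genes) were at 248 and 243 against 207 to 231. Among them Lamp5 was at 35.7 and 49.9 against 0.66 to 1.28 and Rorb at 42.9 and 49.5 against 29.0 to 32.7, while Tbr1 was at most 1.94 CPM in all 6 cerebella. The part of these cells in the subunit values was not tested.

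**Figure D4:**
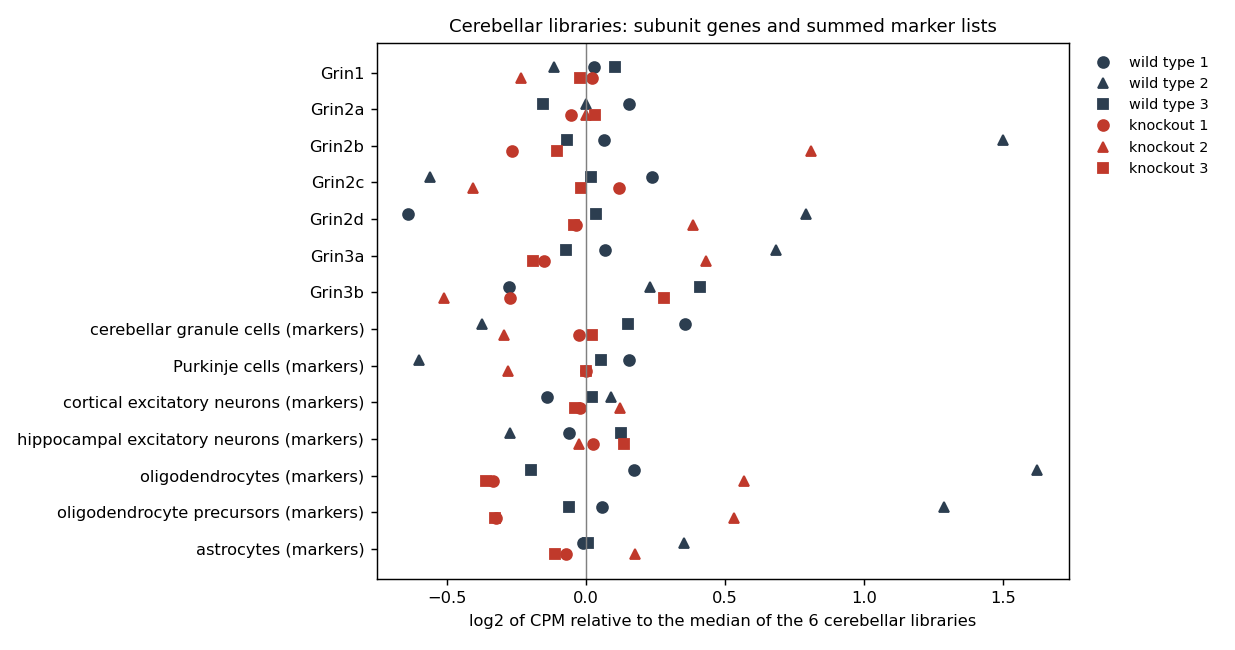
Points give, on a log2 axis, the CPM of each subunit gene and of each summed marker list in the 6 cerebellar libraries relative to the median of the 6, with marker shape for the replicate number. Both libraries numbered 2 (triangles) lie to the right for Grin2b (114 and 184 CPM), Grin3a and oligodendrocyte markers (4295 and 8927) and to the left for Grin2c (233 and 209) and granule cell markers (3915 and 3699).

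In cortex, knockout 2 was highest for Grin2d (27.1 CPM against 12.9 to 15.2) and Grin3a (109 against 49.6 to 55.1) and lowest for Grin2a (610.0 against 732 to 883). In that library Drd2, the receptor of indirect-pathway striatal neurons, was at 44.2 CPM against 0.42 to 1.27 in the other 3, and Drd1 at 50.8 against 5.67 to 8.75. The summed thalamic markers (7 genes) were at 537 CPM against 238 to 255, the GABAergic markers (8 genes) at 1192 against 685 to 733, and the choroid plexus markers (7 genes) at 591 against 17.9 to 37.0. The hippocampal excitatory sum (769 against 395.5 to 407) and the granule cell sum (210 against 108 to 121) were also highest there. So were the sums of astrocytes (8015 against 6563 to 7024), oligodendrocytes (5701 against 1772 to 3633.5) and oligodendrocyte precursors (293 against 150 to 246). The Purkinje sum lay within the range of the others. Of the GABAergic genes, Vip was lowest there (17.9 against 21.3 to 38.6), and Npy and Lhx6 overlapped. The part of all these cells in the subunit values was not tested.

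The second comparison asked whether loss of CARIP changed any subunit. No member passed in any region, in the contrasts of that effect between 2 regions or in the effect averaged over regions. The background was also empty: 0 of 24680 genes passed in each of these comparisons (0% called). At an unadjusted p under 0.05, edgeR's test had 785 genes in cerebellum, 1825 in cortex and 472 in hippocampus. Without any effect, a share of 0.05 of the 24680 genes is expected under that p. That is more than were found in cerebellum and hippocampus and fewer than in cortex. DESeq2 called 2, 47 and 2 genes in these regions, none of them a member. Without knockout cortex 1, so that knockout cortex 2 stood alone, the cortical test called 2884 genes and 0 members.

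In cerebellum all 7 fitted differences were below 0, from -0.01 ± 0.15 for Grin2a to -0.46 ± 0.40 for Grin2b (log2, knockout minus wild type, each adjusted p = 1). With limma, Grin2c and Grin2d were at 0.00154 and 0.02. For every member the ranges of the 3 knockout and the 3 wild-type values overlapped. Within 2 SE of the fitted difference, the knockout level could lie between 0.789 and 1.13 times the wild-type level for Grin1, 0.810 and 1.21 for Grin2a and 0.754 and 1.29 for Grin2c. For Grin2b the bounds were 0.418 and 1.27. Deviations of same-numbered cerebellar libraries from their group means correlated at 0.32, 0.81 and 0.43 for numbers 1, 2 and 3. Values as high or higher were found across numbers 1 and 3 (0.38 and 0.52), so pairing by number is not established for these. The fit with the number as a block is given too. It called 104 genes, 0.421% of those tested, and 0 members. Its largest member difference was Grin2b at -0.36 ± 0.11 (adjusted p = 0.270, edgeR), lower in the knockout in all 3 pairs (53.9 against 67.9, 114 against 184 and 60.3 against 61.8 CPM). Grin3a was likewise lower in all 3 pairs, at -0.20 ± 0.09 (adjusted p = 0.473), and so was Grin1, at -0.09 ± 0.08 (adjusted p = 0.826, 334 against 335, 279.6 against 303 and 324 against 353 CPM). For Grin2a, Grin2c, Grin2d and Grin3b the sign differed among the pairs. The share of all genes with the same sign in all 3 pairs was not computed, so these signs are a description only.

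The cortical differences were -0.16 ± 0.16 for Grin1, -0.14 ± 0.18 for Grin2a, -0.02 ± 0.49 for Grin2b and -0.11 ± 0.24 for Grin2c. Grin2d was 0.65 ± 0.38 and Grin3a 0.54 ± 0.34 higher in the knockout (adjusted p = 0.694 and 0.704), and both sets of values include knockout cortex 2. Without the 3 libraries that stood apart, these were 0.17 ± 0.26 and -0.13 ± 0.14. Grin3b was 1.34 ± 0.56 higher (adjusted p = 0.675), with 13 and 24 reads in the knockout libraries and 10 and 3 in the wild-type ones. The CPM values of the genotypes did not overlap in cortex for Grin2d and Grin3b and overlapped for the other members. The share of all genes without overlap in cortex was not computed, so this too is a description only.

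Hippocampal differences ran from -0.23 ± 0.16 for Grin1 to 0.40 ± 0.53 for Grin3b (each adjusted p = 1). Both knockout libraries were below both wild-type ones for Grin1 (359 and 364 against 451 and 396 CPM). With 2 against 2 libraries the smallest possible exact permutation p is 0.333. The share of all genes without overlap was not computed, so this separation is a description only. For Grin2a, Grin2b, Grin2c, Grin2d, Grin3a and Grin3b the genotypes overlapped. Wild-type hippocampus 2, the library with 1139 CPM of choroid plexus markers, was the highest of the 4 for Grin1, Grin2a, Grin2b and Grin2c. Without it the differences were -0.13 ± 0.20 for Grin1, 0.06 ± 0.22 for Grin2a, -0.04 ± 0.63 for Grin2b and -0.02 ± 0.31 for Grin2c (each adjusted p = 1), and the part of choroid plexus RNA in them was not tested. Grin1, Grin2a, Grin2b and Grin2c each had a negative fitted difference in all 3 regions, although Grin2c in cerebellum turned positive with limma and Grin2a in cortex without the 3 libraries (0.08). With 1 library left out, the sign also changed for Grin2a, Grin2b and Grin2c in cerebellum, for all 4 in cortex and for Grin2a in hippocampus. Averaged over regions by limma, the differences were -0.15 ± 0.09 for Grin1, -0.09 ± 0.10 for Grin2a, -0.17 ± 0.24 for Grin2b and -0.06 ± 0.16 for Grin2c, each with adjusted p = 1. Within 2 SE, the averaged knockout level lay between 0.794 and 1.02 times the wild-type level for Grin1 and between 0.818 and 1.07 for Grin2a.

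**Figure D5:**
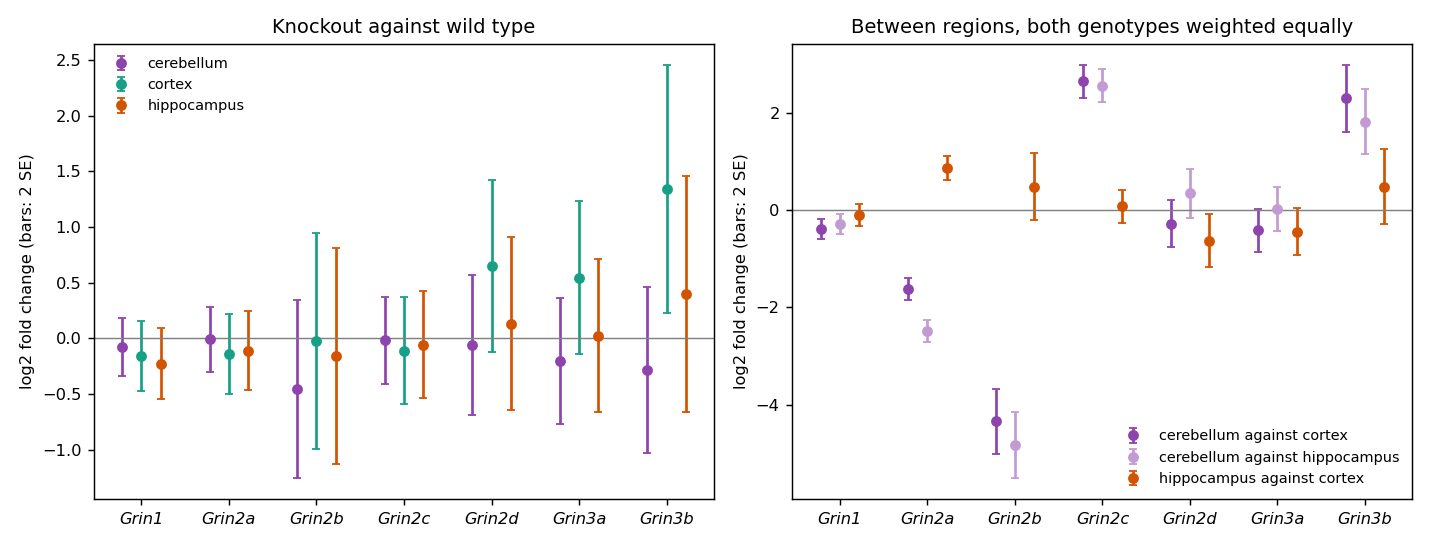
Points give each member's fitted log2 fold change, with bars of 2 SE, between knockout and wild type in each region (left) and between regions (right). Genotype differences run from -0.46 to 1.34 with no adjusted p under 0.05, and regional differences from -4.83 to 2.65.

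Between regions, the knockout effect differed most for Grin3b, by 1.63 ± 0.67 in cortex against cerebellum (adjusted p = 0.787), and the contrast passed for no member. Shares and ratios did not pass between genotypes either, in designs whose smallest possible exact permutation p is 0.1 (3 against 3) and 0.333 (2 against 2). These tests do not use the pairing by number. Read by number, Grin2a to Grin2b was higher in the knockout in all 3 cerebellar pairs (6.22 against 5.72, 3.06 against 1.90 and 5.91 against 5.05). The Grin3a share was lower in all 3 (2.64% against 2.88%, 4.77% against 5.55% and 2.699% against 2.85%), and neither was tested by pair. In every other share and ratio the sign differed among the pairs. The Grin2c share, for example, was 50.7% ± 4.57 in knockout and 49.0% ± 8.07 in wild-type cerebellum (n = 3 each). The hippocampal Grin2b share was 43.0% ± 0.0234 in the knockout and 43.4% ± 0.0645 in the wild type (n = 2 each), without overlap. Cortical Grin2d and Grin3b shares did not overlap either. The same held for Grin2d to Grin2b in cortex and for summed GluN3 genes relative to Grin1 in hippocampus. All other shares and ratios in cortex and hippocampus overlapped between genotypes. With 2 against 2 libraries, a lack of overlap gives an exact permutation p of 0.333, so these separations are a description only.

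Partners of the receptor were read from 3 lists. Of 14 postsynaptic scaffolds and adhesion partners, 12 were lower and 1 higher in cerebellum than in cortex, with a median log2 difference of -1.34 against 0.01 over all genes tested, of which 48.4% passed. The scaffold Shank1 was lower by -1.60 ± 0.08, and the scaffolds Dlg3 (SAP102) and Dlg4 (PSD-95), which bind GluN2 tails, by -1.27 ± 0.08 and -1.41 ± 0.10. Against hippocampus 10 were lower and 2 higher in cerebellum (median -1.44, against 0.02 over all genes, of which 47.3% passed). Dlg3 was lower by -1.55 ± 0.08, Shank1 by -1.49 ± 0.08 and Dlg4 by -1.38 ± 0.10. Between hippocampus and cortex 12 of 14 did not pass, where 12.0% of all genes did. Dlg1 (SAP97) was lower in hippocampus (-0.95 ± 0.10) and the ephrin receptor Ephb2 higher (0.49 ± 0.12).

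Among 16 kinases, phosphatases and trafficking proteins, 11 were lower and 2 higher in cerebellum than in cortex (median -0.55, against 0.01 over all genes tested), where 48.4% of all genes passed. Against hippocampus 10 were lower and 1 higher (median -1.30, against 0.02 over all genes), where 47.3% passed. Camk2a, the kinase that docks on GluN2B, was lower in cerebellum by -5.39 ± 0.17 against cortex and -5.71 ± 0.17 against hippocampus. Against cortex, Kif17, the motor that carries GluN2B vesicles, was lower by -2.03 ± 0.11, the tyrosine kinase Src by -1.25 ± 0.09 and Dapk1 by -3.03 ± 0.22. Against hippocampus, Src was lower by -1.51 ± 0.09, the calcineurin subunit Ppp3ca by -1.61 ± 0.10, and the adaptor Lin7a was higher by 2.37 ± 0.15. Between hippocampus and cortex 4 were higher, 2 lower and 10 did not pass (median 0.28), where 12.0% of all genes passed. Camk2b (1.02 ± 0.10) and Ppp3ca (0.85 ± 0.12) were higher in hippocampus and Lin7a was lower (-0.76 ± 0.15).

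The 15 genes of glycine and D-serine handling were mixed. Against cortex, 6 were higher and 2 lower in cerebellum (median 0.17, against 0.01 over all genes), 8 of 15 where 48.4% of all genes passed. Dao, which degrades D-serine, was higher by 4.61 ± 0.26, and Srr, which makes it, was lower by -0.90 ± 0.07. Shmt2 and Amt, enzymes of glycine metabolism, were higher by 0.69 ± 0.13 and 0.49 ± 0.10. Against hippocampus 5 were higher and 4 lower in cerebellum (median 0.05, against 0.02 over all genes, of which 47.3% passed), with Dao at 4.78 ± 0.27, Srr at -1.03 ± 0.07, Shmt2 at 0.79 ± 0.13 and Amt at 0.56 ± 0.10. Between hippocampus and cortex Gldc, of the glycine cleavage system, was the one that passed, higher by 0.76 ± 0.18. Between genotypes 0 of the 14, 0 of the 16 and 0 of the 15 genes passed in each region. The most abundant, Camk2a (2393 CPM on average) and Shank1 (1153 CPM), differed by -0.18 ± 0.19 and -0.07 ± 0.11 between knockout and wild-type cerebellum. In the same comparison Ppp3ca was -0.17 ± 0.13, Dlgap1 0.09 ± 0.14, Psat1 -0.33 ± 0.33 and Srr -0.12 ± 0.10 (each adjusted p = 1). In cortex and hippocampus these 6 genes ran from -0.23 ± 0.18 (Dlgap1) to 0.41 ± 0.40 (Psat1), both in cortex.

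As a description over the 14 libraries, which share the regional contrast, the genes most like each member in log2 CPM were taken from 15878 genes. Grin2b was closest to Dbn1 (Pearson r = 0.997), which encodes the spine protein drebrin, to Lrrc7 (0.997), which encodes densin, and to B230334C09Rik (0.997). Grin2a was closest to Faah (0.997), Atp2b1 (0.996) and Prkca (0.995). Grin2c was closest to Epha1 (0.996), Cep76 (0.993) and Pax6 (0.993), the last a transcription factor of granule cells. For these 3 members, 749, 265 and 514 genes had r above 0.95, so the named genes are a few among many. Grin2d was closest to Flywch1 (0.964), Resp18 (0.949) and Vwa5b1 (0.941), and Grin3a to Gpc3 (0.963), Tmem127 (0.959) and Sv2a (0.957). Grin1 reached 0.928 with Arfgap1, 0.926 with Med25 and 0.924 with Edc4, and Grin3b 0.944 with Nfatc3, 0.943 with Lcat and 0.937 with Hk2. Between members, Grin2b and Grin2c had r = -0.987 over all 14 libraries and -0.919 within the 6 cerebella, where Grin2b and Grin3a had 0.983. The within-cerebellum values lean on the libraries numbered 2.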

How the data were processed

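The authors deposited 1 table of whole-number read counts per gene, not normalized, with 14 library columns and 0 columns left unused. Per the submitters' processing notes, Trim Galore 0.6.4, cutadapt 2.10, STAR 2.7.3a and featureCounts 2.0.1 were used with GRCm38.p6 (mm10). Not given in the sources used here: annotation release, strand and treatment of multi-mapping reads. Identifiers were joined to GENCODE M21 without their version (48058 of 48440 matched, and Grin3b matched by stem only).

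edgeR 4.0.16 (R 4.3.3) was run with filterByExpr, TMM and the robust quasi-likelihood test on 14 libraries in 6 groups. limma 3.58.1 (voom, genotype with number as a random block, correlation 0.0962) gave the averaged knockout effect. p-values were Benjamini-Hochberg adjusted over 24680 genes, with a threshold of 0.05. Shares and ratios used CPM per kilobase of merged exons and exact two-sided permutation tests. Scripts were tested on simulated data. Alternatives were DESeq2 1.42.0, limma, other scaling, no filter, subsets of libraries, a replicate block, other gene lengths, each library left out, and 3 libraries left out together (chosen after seeing the data).

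Same-numbered knockout and wild-type cerebella had deviations from their group means that correlated at 0.32, 0.81 and 0.43 over 15884 genes, all above the limit of 0.1 for treating numbers as pairs. Across numbers, values as high or higher were found for the knockout numbered 1 beside wild type 3 (0.38) and for that numbered 3 beside wild type 1 (0.52), which leaves number 2 as the pair that stands alone. What a number marks is not in the labels. All 7 members were named in every comparison. Up to 4 passing genes per list were named by smallest p, or else the 2 most abundant, and the 3 most similar genes per member. Some items that these rules select are not reported here. Members and lists were chosen with earlier results of these data known.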

Additional observations from a re-analysis of the deposited data

Results flagged for a closer look

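Among the 21 sets made of 1 member in 1 region, 2 held a library whose gap to the rest exceeded Dixon's 95% limit, and chance gives about 1 in 20. Both lie in cortex and in the same library, knockout 2. Grin2d was at 27.1 CPM there and at 12.9 to 15.2 in the other 3 libraries. Grin3a was at 109 CPM and at 49.6 to 55.1 in the others. The cell type marker sums of that library, given with the regional results, were also the highest of the 4, except the Purkinje and cortical excitatory ones. Their part in both values was not tested.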

How the results depend on the processing

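With 7 genes and 2 or 3 libraries per group, depth limits Grin3b most (3 to 68 reads), and the number of libraries limits every genotype comparison. No member was called between genotypes under any alternative. Member calls against cerebellum for Grin2a, Grin2b, Grin2c and Grin3b stood under every alternative run, and those for Grin1 and Grin3a moved as given with the regional results. Leaving out 1 library of a pair leaves a lone library that is assumed to vary like the other groups, and the averaged effect then keeps the correlation of all 14 libraries.

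Counts of genes called between genotypes were 0 and became as follows. DESeq2 gave 2 in cerebellum, 47 in cortex and 2 in hippocampus. The replicate block gave 104 in cerebellum, where it can be fitted, with no member among them. Cortex and hippocampus share 1 number between genotypes, so no paired fit was possible there. No filter on low counts gave 1 in cortex, a fit to hippocampus alone gave 7, and edgeR without a block gave 1 for the averaged effect. Leaving out the 3 libraries together gave 1 in cerebellum, 3 in hippocampus and 21 for the average. Leaving out each library in turn gave 0 to 1 in cerebellum, 0 to 2884 in cortex, 0 to 1457 for cortex minus cerebellum, 0 to 759 for hippocampus minus cortex and 0 to 42 for the average. The highest of each of these, except for cerebellum where both knockout cortical libraries gave 1, came without knockout cortex 1.

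Between regions, wild-type libraries alone called 6913 genes (cerebellum against cortex), 1132 (hippocampus against cortex) and 6970 (cerebellum against hippocampus), and knockout libraries alone 7933, 638 and 7052. Hippocampus against cortex had 5238 genes without the 3 libraries and 1565 to 4194 when each library was left out. Its members called were 2 in the fit to those regions, 2 without the 3 libraries and 1 to 2 when each library was left out.

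Values that changed sign were these, none called unless stated. In knockout against wild-type cerebellum, limma gave 0.0015 for Grin2c and 0.02 for Grin2d, and the replicate block gave 0.014 for Grin2d. Wild-type libraries alone gave 0.08 for Grin2d (cerebellum against cortex), and knockout libraries alone gave -0.082 for Grin3a (cerebellum against hippocampus). The longest transcript gave 0.0014 points for the Grin3b share (hippocampus against cortex). Without the 3 libraries, knockout minus wild type was 0.22 for Grin2d in cerebellum and 0.076 for Grin2a and -0.13 for Grin3a in cortex, and -0.091 for Grin3a on average. The contrast of cortex minus cerebellum was then 0.011 for Grin1, 0.094 for Grin2a and -0.051 for Grin2d, that of hippocampus minus cerebellum 0.019 for Grin2c and -0.091 for Grin2d, and that of hippocampus minus cortex -0.19 for Grin2a and 0.16 for Grin3a. Between regions it was -0.22 for Grin3a (cerebellum against hippocampus, called), 0.015 points for the Grin3b share and 0.05 for log2 Grin3a-b to Grin1 (both hippocampus against cortex). The cause of these changes was not tested.

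With each library left out in turn, the members that changed sign ranged as follows on the log2 scale. In cerebellum (knockout minus wild type), Grin2a from -0.085 to 0.070, Grin2b from -0.87 to 0.23, Grin2c from -0.22 to 0.16, Grin2d from -0.35 to 0.38 and Grin3a from -0.44 to 0.062. In cortex, Grin1 from -0.40 to 0.069, Grin2a from -0.44 to 0.059, Grin2b from -0.17 to 0.085, Grin2c from -0.32 to 0.071 and Grin3a from -0.15 to 0.97. In hippocampus, Grin2a from -0.26 to 0.061, Grin2d from -0.074 to 0.38, Grin3a from -0.10 to 0.14 and Grin3b from -0.019 to 0.73. For cortex minus cerebellum, Grin1 from -0.32 to 0.15, Grin2a from -0.43 to 0.068, Grin2b from -0.26 to 0.85 and Grin2c from -0.30 to 0.10. For hippocampus minus cerebellum, Grin2a from -0.25 to 0.070, Grin2b from -0.39 to 0.71, Grin2c from -0.22 to 0.16, Grin2d from -0.25 to 0.48 and Grin3a from -0.039 to 0.46. For hippocampus minus cortex, Grin1 from -0.30 to 0.17, Grin2a from -0.17 to 0.33, Grin2b from -0.24 to 0.013, Grin2c from -0.13 to 0.26 and Grin3a from -0.94 to 0.18. For the averaged effect, Grin2c from -0.14 to 0.0059 and Grin3a from -0.10 to 0.26. For cerebellum against cortex, the summed GluN3 genes relative to Grin1 from -0.017 to 0.48. For hippocampus against cortex, Grin1 from -0.21 to 0.021, Grin2c from -0.0070 to 0.19, the Grin3b share (percentage points) from -0.021 to 0.015 and the summed GluN3 genes relative to Grin1 from -0.45 to 0.052. For cerebellum against hippocampus, Grin3a from -0.11 to 0.11.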
